A study of Mus musculus with 48 samples.

Results

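Editing of adenosine to inosine was examined at 300 positions that leave the encoded protein sequence as it is, in 8 tissues of mice with and without an ADAR1 that can edit. They are the sites annotated by the authors as lying in a 5′ untranslated region (119 sites in 11 transcripts) or, for the rest, as synonymous (in 40 genes), and each had more than 100 reads in at least 1 of 48 libraries. Sites of Acot10 were left out. The 300 sites were taken from 48715 listed positions, of which 7339 reached that coverage. A further 91 synonymous and 129 5′ UTR positions were listed but never passed 100 reads, and 3 of the 4 synonymous positions in Acot10 did. The rule uses the annotation and the coverage, not the editing level.

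The mice were 12-week-old C57BL/6 males of the genotypes Adar1+/+ Ifih1-/- (WT), whose ADAR1 is intact, or Adar1E861A/E861A Ifih1-/- (E861A), whose ADAR1 protein is present but lacks deaminase activity. Both genotypes lack Ifih1, which encodes MDA5, a cytosolic sensor of double-stranded RNA, so no group had a functional MDA5. Libraries of brain, heart, liver, kidney, small intestine, spleen, thymus and BM (described as haematopoietic cells) were each represented by 3 libraries per genotype, described as independent biological replicates. In mmPCR-seq, cDNA around known editing sites is amplified with multiplexed primers and sequenced, and inosine is read as guanosine. The editing level is therefore the share of reads at a site with G in place of A, given here in percent for libraries with over 100 reads at the site. Summed coverage was 1861831 to 11394093 per library, 117 to 253 of the 300 sites had over 100 reads in a library, and the median coverage of these sites was 394 to 2458.

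Mammalian RNA is edited by ADAR1 and ADAR2. ADAR1 is made in most tissues, whereas ADAR2, encoded by Adarb1, is best known for recoding transcripts of neuronal ion channels and receptors. Both act on double-stranded RNA, which a pre-mRNA can form by pairing an exon with a neighbouring intron or by pairing inverted repeats in a UTR. Within such a duplex an enzyme often edits several adenosines besides the one that changes the protein, and these may fall on the last base of a codon, where a change to G tends to keep the amino acid.

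The reference base was A at 300 of the 300 sites. In the GENCODE annotation of the same genome build (mm9, NCBIM37), nearly all synonymous sites lay in a coding exon, as the last base of their codon; the exceptions to the former were 1 intronic site in Pcdhgb4 and 2 sites in Kcnma1 outside any transcript on that strand. The 5′ UTR class was less uniform. GENCODE placed 35 of its 119 sites in a 5′ UTR (in Blcap, Pa2g4, Zfp362 and Hipk4), 78 in non-coding exons of transcripts of G2e3, Trim39, B230208H17Rik, Dhx35, Fastk and Ddx55, which the files list under UCSC transcript names, and 6 (all in 2610044O15Rik) in no transcript on that strand. ADARs are known to disfavour a G and favour a U immediately 5′ of the edited base and to favour a G after it. A T preceded 12.3% of the 300 sites and 19.3% of the 7339 covered positions, a G preceded 23.0% and 22.8%, and a G followed 41.3% and 33.8%. Among the 49 sites that exceeded the edited limit in some tissue, 22 were followed by G, 6 were preceded by T and 12 by G.

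Coding sites of glutamate receptor transcripts and Cog3 are given first, to show their place beside recoding positions: 4 of the 5 lie directly 5′ of an adenosine whose editing recodes a protein. Each line is the transcribed strand, 5′ to 3′, with the synonymous site at base 11 in capitals together with the recoding adenosine, which is base 12 in Gria2 Leu, Gria3, Gria4 and Cog3 and base 7 in Gria2 Gln.
Gria2 Leu, chr3:80496199-80496219, minus strand: gatcctcattAAggtgggtgg
Gria3 Leu, chrX:39007418-39007438, plus strand: gctcagcattAAggtgggtgg
Gria4 Leu, chr9:4455997-4456017, minus strand: gttcctcattAAggtgggtgg
Gria2 Gln, chr3:80510820-80510840, minus strand: ttatgcAgcaAggatgcgata
Cog3 Glu, chr14:76119517-76119537, minus strand: ccattaaggaAAtttccctgg
The 3 windows around the Leu codon are close copies of each other. Gria2 and Gria4 shared 20 of 21 bases, and Gria3 shared 18 of 21 with either.

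Few of the 300 sites were edited. A site was called edited in a tissue where at least 2 of 3 libraries of both genotypes had over 100 reads and the pooled level exceeded 1% in either genotype. This was so for 49 sites in 24 genes, 25 synonymous and 24 in 5′ UTRs, and for 35 of them in a single tissue. Cog3 was the one site edited in all 8 tissues. In 199 of 300 sites no library exceeded 1%, and the highest level reached by a site had a median of 0.759% over the 300. Sites exceeding 20% in any library numbered 2 among synonymous and 10 among 5′ UTR sites. These counts over any library are given without a figure for the other classes. Most covered positions of the whole panel were unedited too. By the same limit, 4.35% (spleen) to 20.5% (brain) of those covered in a tissue were edited, so low editing was not particular to these sites. The 3 synonymous positions in Adarb1, the gene of ADAR2, had over 100 reads in E861A brain replicate 2 alone, with no edited read at coverages of 115 to 123; a count of 0 in 115 reads allows a level of up to 2.61%.

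Brain had the largest share of edited sites in both classes. Of 110 synonymous sites covered in brain, 16 (14.5%, Wilson 95% interval 9.16 to 22.3) were edited, against 2.38% in kidney to 7.25% in heart among the other 7 tissues. Of 119 5′ UTR sites, 15 (12.6%, 7.79 to 19.8) were edited in brain, 9 of 119 in kidney (7.56%, 4.03 to 13.8) and 0 of 113 in spleen. Over all annotated classes, 20.5% of covered positions were edited in brain and 4.35% in spleen, so that brain was highest for the whole panel as well. These intervals cover counting error only, and sites of one amplicon share their reads, which carry no molecular identifiers. The brain libraries also covered 10 of 11 neuronal transcripts in every library, whereas the other tissues covered 1 to 5 of the 11 in every library. In at least 1 library, the other tissues covered 8 to 10 of the 11. Grik2, for example, had over 100 reads in all 6 libraries of spleen, thymus, kidney and heart as well. In whole tissue, a smaller share of cells of a type and less RNA per cell cannot be told apart.

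**Figure D1:**
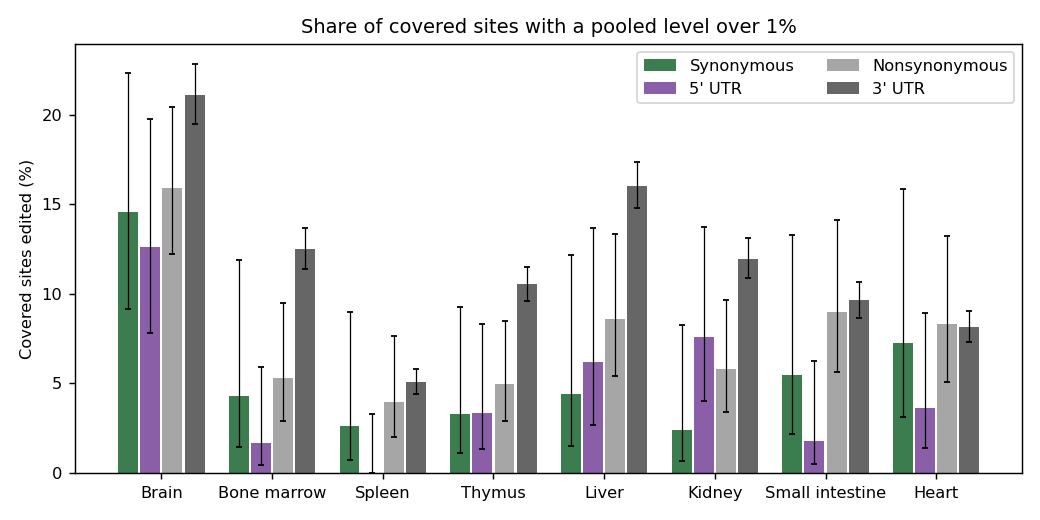
Percent of covered sites with a pooled editing level above 1% in either genotype, by tissue (x axis) and class (bars), with Wilson 95% intervals as error bars. The synonymous and 5′ UTR bars were highest in brain (14.5% and 12.6%), and no 5′ UTR site was edited in spleen.

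The genotype comparison asked whether loss of ADAR1 editing changed the level at these sites. No site of either class passed the threshold in any of the 8 tissues (limma, adjusted p under 0.05 over all edited sites of the tissue). In brain 31 sites were tested, in BM 5, in spleen 2, in thymus 7, in liver 8, in kidney 11, in small intestine 6 and in heart 9, which makes 79 pairs of a site and a tissue. The background differed by tissue: of all edited sites, 27.0% were called in BM, 9.15% in spleen, 9.75% in liver and 17.1% in kidney, and 0.0% in brain, 0.0% in thymus, 0.0% in small intestine and 0.0% in heart. Of the 4 tissues with the most tested pairs, brain and heart were thus without a call at any site of any class. Of the 79, 3 had an unadjusted p under 0.05, 2 of them in brain and 1 in liver. A quasi-binomial model of the reads called 0 of 79, with 2 at an unadjusted p under 0.05, and 4.76% of all edited sites. A one-way F test at the looser limit of an unadjusted p under 0.1, with means at least 5 percentage points apart, called 1 of 79 and 10.2% of all. That site would not have passed this F test at 0.05. A fit over all 48 libraries, in which the tissues share one estimate of the spread, called 14 of the 79 and 24.7% of all. In brain it called 10 of 31 and 26.9% of all, in liver 2 of 8 and 32.9% of all, in BM 1 of 5 and 47.0% of all, and in heart 1 of 9 and 6.5% of all.

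The direction at these sites was split. The E861A mean was lower in 42 of 79 pairs (53.2%) and higher in 37, with a median difference of −0.606 percentage points, while over all 4227 tested pairs it was lower in 77.3% with a median of −2.09. The pooled shares weight the tissues differently, since brain held 31 of the 79 pairs but 808 of the 4227. Of the 79 pairs, 59 exceeded the edited limit in WT, 49 in E861A and 29 in both. A pair that entered through 1 genotype alone tends to have the higher mean there. Counts of lower and higher means, here and below, are therefore a description. Within brain the E861A mean was lower in 18 of 31 pairs (median −0.776), against 57.4% of all edited sites (median −0.838). It was lower in 2 of 5 pairs in BM, 2 of 2 in spleen, 2 of 7 in thymus, 6 of 8 in liver, 6 of 11 in kidney, 2 of 6 in small intestine and 4 of 9 in heart, where 75.6% (heart) to 89.2% (thymus) of all edited sites were lower. Among pairs with over 100 reads in all 6 libraries, the genotypes did not overlap in 4 of 57 (7.02%), against 27.8% of all edited sites. Those 4 were Unc80 and 1 uc007nmn.2 site in brain, both lower in E861A, and 1 uc007nmn.2 site in liver and Cacna1g in heart, both higher. Class means were taken over the edited sites with over 100 reads in all 6 libraries of the tissue. In brain the nonsynonymous (41 sites) and 3′ UTR (382 sites) means were 31.1% ± 2.11 and 10.1% ± 0.834 in WT (SD, n = 3). In E861A they were 27.8% ± 0.682 and 7.60% ± 0.293. The synonymous mean over 16 brain sites was 4.13% ± 0.659 in WT and 3.69% ± 0.347 in E861A, with overlapping libraries. The 5′ UTR mean over 9 brain sites was 7.02% ± 7.4 in WT and 13.0% ± 5.37 in E861A, also with overlapping libraries. Over all 15 5′ UTR sites tested in brain, 7 were lower in E861A and the median difference was 0.438 percentage points. In liver the mean over 3 5′ UTR sites was 3.29% ± 1.61 in WT and 12.3% ± 8.26 in E861A, every E861A library being above every WT library. Base 5 of uc007nmn.2 carried this difference, with an E861A mean 31.4 percentage points above that of WT, while 4 of the 5 5′ UTR sites tested in liver were lower in E861A (median difference −2.68). In kidney (9 sites) the 5′ UTR mean was 1.30% ± 0.462 in WT and 1.42% ± 0.763 in E861A. In heart (3 sites) it was 7.09% ± 12.1 and 0.264% ± 0.221, and in thymus (2 sites) 1.20% ± 0.912 and 0.460% ± 0.248. The libraries overlapped in each of these tissues. Over all 4 5′ UTR sites tested in thymus, however, 2 were lower in E861A and the median difference was 12.0 percentage points. The 5′ UTR means rest on few sites, and the heart mean on 1 library. Over the same 3 heart sites without WT replicate 1, the difference went from −6.83 to 0.152 percentage points.

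Gria2 encodes the GluA2 subunit of AMPA-type glutamate receptors, whose Gln-to-Arg editing makes the channel impermeable to calcium. The synonymous Gln site (chr3:80510830, minus strand) lies 4 bases downstream of that recoding adenosine and had the highest mean level of the synonymous sites edited in brain. In brain the WT libraries measured 24.2%, 27.4% and 32.0% and the E861A libraries 30.3%, 32.5% and 29.9%, at 4640 to 10692 reads. The groups overlapped, at means of 27.8% ± 3.88 and 30.9% ± 1.44 (SD, n = 3). The log2 ratio of edited to unedited reads differed by 0.21 ± 0.51 (SE), with a 95% interval of −1.02 to 1.45 and an adjusted p of 0.866. The recoding site itself was at 99.8% ± 0.107 in WT and 99.9% ± 0.0404 in E861A. Outside brain few libraries passed 100 reads at this position. Levels there were 99.8% in WT spleen replicate 3, 31.1% in WT liver replicate 3 and 22.4% in WT small intestine replicate 1, but 0.414% in WT heart replicate 3 and 0.319% in WT BM replicate 3, and at most 0.381% in kidney.

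The R/G site of AMPA receptor subunits changes an Arg codon to Gly just before the flip/flop exon and alters recovery from desensitisation. The synonymous Leu site is the base before it. In brain Gria4, which encodes GluA4, had 8.59%, 5.95% and 1.42% in WT and 14.7%, 3.83% and 6.00% in E861A. For Gria2 the Leu site measured 5.86%, 1.93% and 1.86% in WT and 1.27%, 1.32% and 2.41% in E861A. In Gria3, which encodes GluA3, the WT libraries read 0.0969%, 1.47% and 0.948% and the E861A libraries 0.200%, 2.02% and 0.969%. In each gene the genotypes overlapped, with adjusted p-values of 0.756, 0.743 and 0.940. The adjacent Arg-to-Gly positions were edited far more, with WT means of 91.5% ± 5.18 in Gria4, 73.9% ± 2.11 in Gria2 and 58.0% ± 13.6 in Gria3, and the synonymous level followed that order (5.32%, 3.22% and 0.839%). In liver, Gria3 Leu passed the limit through WT replicate 3 alone (10.0%, against 0.152% in WT replicate 2 and at most 0.0994% in E861A).

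Grik2 and Unc80 complete the neuronal transcripts with an edited synonymous site. Grik2 encodes the kainate receptor subunit GluK2, and its Gly site lies 17 bases upstream of its own Gln-to-Arg position. It ranged from 0.205% to 5.23% in WT brain and from 0.162% to 3.49% in E861A. Unc80 encodes a subunit of the sodium leak channel complex. Its Arg site (chr1:66720620, plus strand) was at 0.324%, 2.67% and 1.27% in WT brain and 0.119%, 0.0895% and 0.165% in E861A. All 3 WT libraries were above all 3 E861A libraries, yet the difference of −1.0 ± 0.53 (SE) on the log2 ratio scale had an adjusted p of 0.701. In the other neuronal transcripts of the list (Cacna1d, Cadps, Gabra3, Grik1, Htr2c, Kcna1 and Nova1) no synonymous site was edited, and their highest level in any library was 0.541% to 1.81%.

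Among transcripts known for recoding, 16 genes held 85 of the 300 sites, and 8 of these were edited somewhere. Their 17 tested pairs had a lower E861A mean in 8 and a higher one in 9, with 0 called and a median difference of 0.114 percentage points. Outside the neuronal transcripts, those with edited synonymous sites were Cog3 and Son, and the Blcap site in its 5′ UTR stayed at or below 0.119%. Zinc finger genes (3 genes, 27 sites) had 12 tested pairs, of which 8 were lower in E861A, and transcripts with a UCSC identifier only (11, with 110 sites) had 31, of which 19 were lower. The remaining 20 genes, with 78 sites, had 19 tested pairs, 7 lower and 12 higher, and 0 were called in any of these groups.

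**Figure D2:**
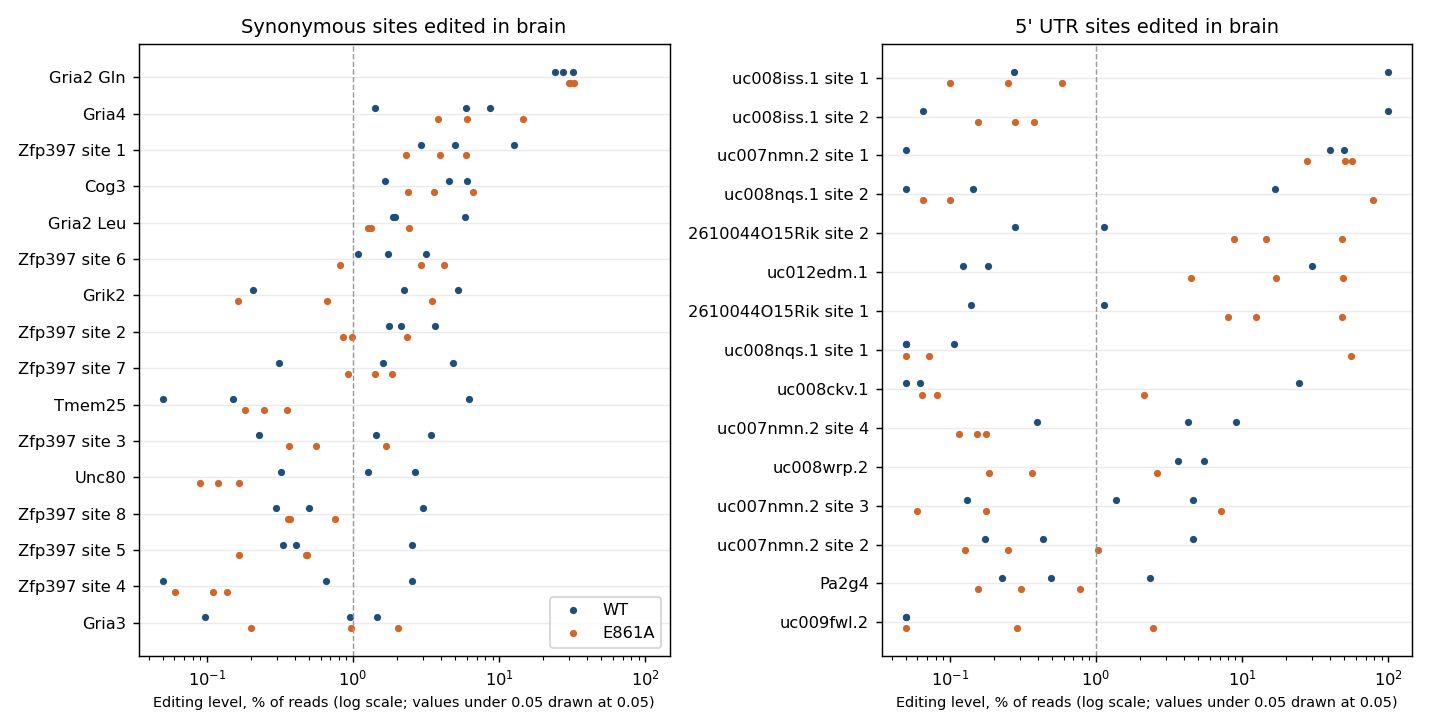
Editing level of each site edited in brain in each library (x axis, percent on a log scale, values under 0.05 drawn at 0.05), synonymous sites on the left and 5′ UTR sites on the right, with WT in blue and E861A in orange; sites of one gene are numbered by position and the dashed line marks 1%. The Gria2 Gln site lies between 24.2% and 32.5% in all 6 libraries, while several 5′ UTR sites, such as uc008nqs.1, are near 0 in most libraries and above 50% in 1.

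Cog3 encodes a subunit of the COG complex, a tether of vesicles at the Golgi. Its synonymous Glu site (chr14:76119527, minus strand) is the base before a known Ile-to-Val position and was edited in every tissue. In heart the WT libraries measured 8.02%, 5.94% and 14.8% and the E861A libraries 12.0%, 8.19% and 16.4%, the highest levels of the site. Kidney had 8.4%, 6.90% and 8.52% in WT and 4.52%, 9.60% and 8.73% in E861A. Liver had 8.95%, 3.56% and 6.05% in WT and 7.07%, 9.25% and 5.81% in E861A. Every library of these tissues was at 3.56% or more, and in each tissue the genotypes overlapped.

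Lower levels were found elsewhere. WT means were 4.08% ± 2.22 in brain, 3.86% ± 3.39 in spleen, 1.83% ± 1.59 in thymus, 0.975% ± 1.42 in small intestine and 0.652% ± 0.372 in BM (SD, n = 3). The E861A means were 4.19% ± 2.19 in brain, 1.53% ± 0.503 in spleen, 2.03% ± 0.763 in thymus and 1.32% ± 1.78 in BM. Small intestine had 2 covered E861A libraries, at 2.89% and 0.515%. The order from heart (9.58% ± 4.63) through kidney, liver, brain and spleen to BM had neighbours that lay within each other's spread, and the test among the 8 WT tissues missed the threshold (adjusted p = 0.0681). Adjusted p-values of the genotype comparison were 0.518 to 0.991 over the 8 tissues, and the widest 95% interval of the log2 ratio, in small intestine, was −2.35 to 3.41.

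The adjacent Ile-to-Val position was edited 5.13 to 26.2 times as much in WT tissue means. It was highest in liver (64.0% ± 3.00), kidney (60.7% ± 4.53) and heart (49.2% ± 3.52) and lowest in BM (17.1% ± 3.68). Over the 8 tissue means, the levels of the 2 positions had a Spearman rho of 0.88 in WT and 0.79 in E861A. This is a description of 8 points in which both values come from the same amplicon and the same reads. Heart had the highest level at the Glu site and the third at the Ile site.

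**Figure D3:**
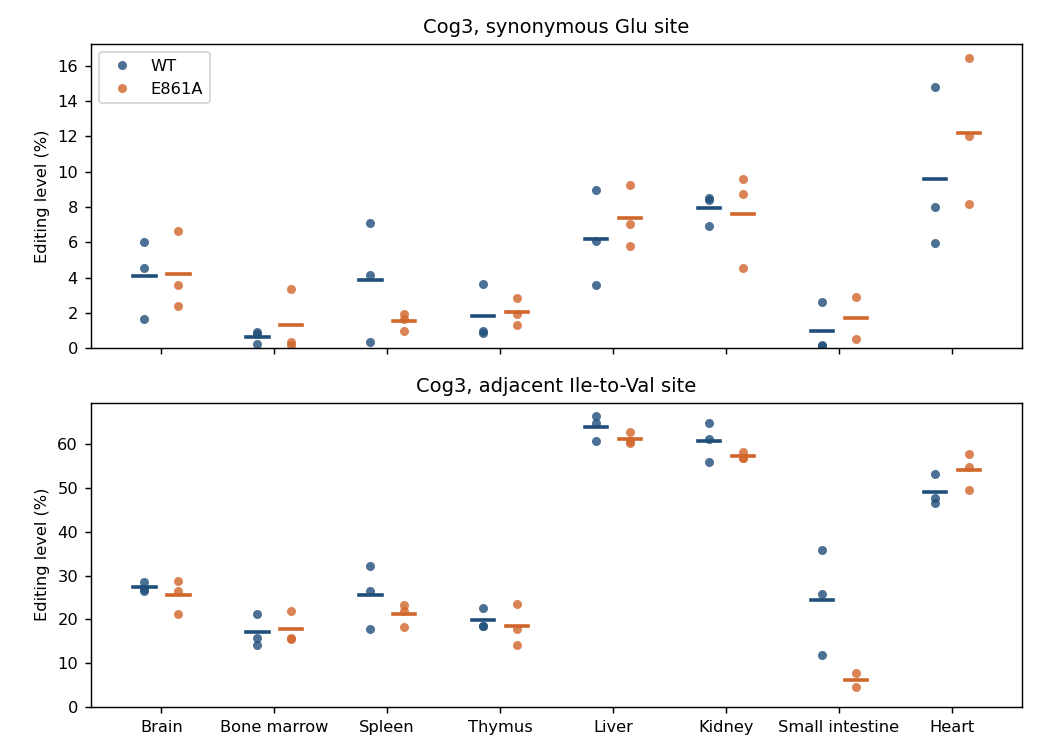
Editing level in percent of the synonymous Glu site of Cog3 (top) and the adjacent Ile-to-Val site (bottom) in each library, by tissue, with WT in blue, E861A in orange and short lines at the group means. The Glu site reached 16.4% in heart, and liver, kidney and heart had the highest group means of both sites in both genotypes.

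Among the 5′ UTR sites, uc007nmn.2, an exon of G2e3, held the highest reproducible levels. G2e3 encodes a ubiquitin ligase. The edited cluster spans the following 30 bases, with edited adenosines at bases 5, 10, 23 and 26 in capitals.
uc007nmn.2, chr12:52472390-52472419, plus strand: tggtAgctcAcaaccgtctgtaAtgAgatt
At base 5 (chr12:52472394) the WT brain libraries measured 0.0%, 39.6% and 49.5% and the E861A brain libraries 56.0%, 28.0% and 50.4%. Of 6 brain libraries, 5 were thus above 25% and WT replicate 1 had no edited read in 1516, which allows up to 0.198%. The means of 29.7% ± 26.2 and 44.8% ± 14.8 (SD, n = 3) gave an adjusted p of 0.701. In BM, spleen, thymus and small intestine no library of either genotype exceeded 1%.

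Liver differed in that the genotypes did not overlap at this base. The WT libraries had 0.342%, 0.200% and 10.9% and the E861A libraries 20.1%, 23.0% and 62.5%, at 1125 to 2049 reads. The level was thus higher in all 3 E861A libraries, at 35.2% ± 23.7 against 3.80% ± 6.11 (SD, n = 3). The change of 4.21 ± 1.26 (SE) on the log2 ratio scale had an adjusted p of 0.101 and a 95% interval of 1.21 to 7.22. It passed the threshold without WT replicate 3 (adjusted p = 0.0268, with 17.1% of all liver sites called) and in a fit over all 48 libraries (0.00523), and over all the alternatives that tested it the adjusted p was between 0.00523 and 0.551. In kidney and heart the same base was above 1% in 3 and 1 of 6 libraries.

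The other adenosines of the cluster behaved differently. Base 26 (chr12:52472415) was at 0.393%, 9.12% and 4.23% in WT brain and at 0.116%, 0.178% and 0.153% in E861A brain, all 3 E861A libraries being below all 3 WT libraries (adjusted p = 0.701). In kidney that base exceeded 1% in 1 library, E861A replicate 1 (5.05%). Base 23 (chr12:52472412) was at 0.132%, 1.36% and 4.59% in WT brain and 0.176%, 0.0598% and 7.17% in E861A brain, with overlapping genotypes. Base 10 (chr12:52472399) exceeded 1% in 2 brain libraries, in 1 liver library (7.39%) and in 1 kidney library (5.38%), and the 31 bases around it occur elsewhere in the genome in 9 exact copies with A and 1 with G at the site. Only these 31 bases were searched, and whether reads from such copies were counted at this exon was not tested.

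**Figure D4:**
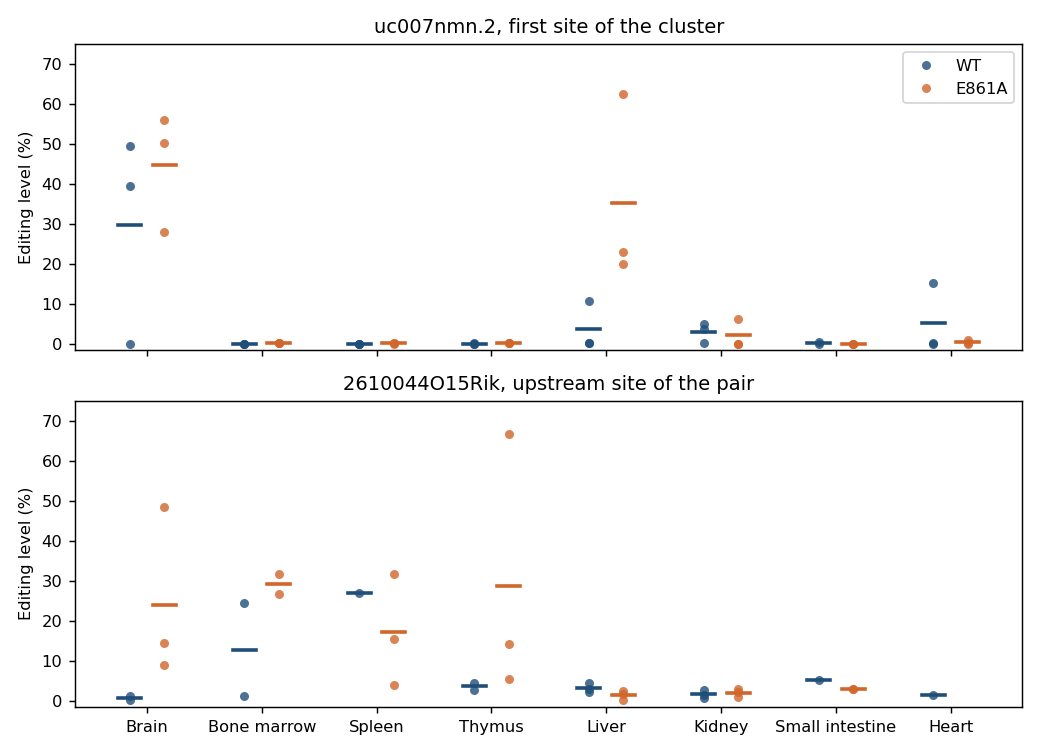
Editing level in percent at base 5 of the uc007nmn.2 cluster (top) and at the upstream site of the 2610044O15Rik pair (bottom) in each library with over 100 reads, by tissue, with WT in blue, E861A in orange and short lines at the group means. The uc007nmn.2 level in liver was 0.200% to 10.9% in WT and 20.1% to 62.5% in E861A, and the 2610044O15Rik level was above 8% in 3 of 3 E861A brain libraries.

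A pair of sites 7 bases apart in 2610044O15Rik, a transcript of undescribed function, moved together. The adenosines are bases 11 and 18 of this window.
2610044O15Rik, chr17:95233721-95233748, minus strand: ggcttgaatgAttctaaAtatcctgctt
In the 34 libraries that covered both, the levels differed by a median of 0.945 percentage points and at most by 3.26, while they ranged up to 66.7%. Base 11 measured 1.14% and 0.280% in the 2 covered WT brain libraries and 48.4%, 8.85% and 14.5% in E861A brain. Base 18 measured 1.14% and 0.140% in WT brain and 47.8%, 7.96% and 12.4% in E861A brain. Each E861A library was above each covered WT library, and the 95% intervals of the log2 ratio change were 1.0 to 6.98 and 0.81 to 7.05, but the adjusted p-values were 0.417 and 0.479. The fit over all 48 libraries called both in brain (0.0185 and 0.0288). WT replicate 1 had 13 reads at either site and did not enter.

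The pair was not uniformly higher in E861A. In thymus base 11 had 4.50% and 2.77% in WT and 5.58%, 14.2% and 66.7% in E861A, and in BM 1.15% and 24.4% in WT and 26.7% and 31.8% in E861A. In liver it had 4.42%, 2.34% and 2.94% in WT and 0.198%, 1.72% and 2.43% in E861A. In kidney both genotypes lay between 0.729% and 2.89%. Within single tissues the pair did not pass the threshold (adjusted p-values of 0.333 to 0.785 outside brain), at no more than 883 reads. With the replicate number as a block, both sites were called in BM (adjusted p = 0.00601 and 0.0144), where 2 libraries per genotype were covered and 23.8% of all sites were called.

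The number of libraries with editing varied among the other 5′ UTR sites. In uc008nqs.1, an exon of Dhx35, which encodes an RNA helicase, 5 neighbouring adenosines were edited in some tissue, at bases 7, 8, 16, 18 and 23 of this window.
uc008nqs.1, chr2:158653240-158653268, plus strand: agactcAAtccagcaAtAgtgcAggtcca
In brain base 18 (chr2:158653257) was at 78.2% in E861A replicate 1 and 16.9% in WT replicate 3 and at no more than 0.143% in the other 4. Base 8 was at 55.7% in E861A replicate 2 and at most 0.107% in the other 5. In heart bases 7 and 18 had 24.8% and 23.1% in WT replicate 1 and at most 0.341% elsewhere. In liver base 8 had 27.5% in WT replicate 2 and at most 0.242% in the other 4 covered libraries, while base 18 had 24.4% in WT replicate 2, 5.11% in WT replicate 3 and 13.5% in E861A replicate 2. In kidney base 18 was above 1% in 5 of 6 libraries at up to 4.59%.

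Single libraries also carried the brain sites of uc008iss.1, an exon of B230208H17Rik. A pair of them (chr2:25445299 and chr2:25445313, minus strand) read 100% in WT brain replicate 2, at 841 and 824 reads, and at most 0.588% in the other 4 covered libraries. The Trim39 exon uc008ckv.1 had 24.6% in WT brain replicate 3, 2.13% in E861A replicate 1 and at most 0.0821% in the other 4. Editing in several libraries was found at 2 further brain sites. In uc012edm.1, an exon of Ddx55, chr5:125005407 was at 30.2% in WT replicate 3 and 17.1%, 49.2% and 4.45% in E861A brain, and below 0.2% in the remaining WT libraries. The Fastk exon uc008wrp.2 (chr5:23950455, minus strand) had 3.65% and 5.48% in the 2 covered WT brain libraries and 0.185%, 0.365% and 2.63% in E861A brain (adjusted p = 0.701). The Pa2g4 site, in the 5′ UTR of a gene for a proliferation-associated protein, had 2.33% in WT brain replicate 1 and at most 0.772% in the other 5, and the Hipk4 site 2.45% in E861A brain replicate 2. The window of the Fastk exon is shown because its site was among those called in the comparison of WT tissues below. It entered that comparison through its brain level alone.
uc008wrp.2, chr5:23950445-23950465, minus strand: gaatgacctcAggcttaacct

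The number of libraries above 1% was counted for each edited site. Of 57 pairs of a site and a tissue with all 6 libraries covered, 24 (42.1%) exceeded 1% in 1 library and 8 (14.0%) in all 6. All 8 of the latter were synonymous, 8 of 31, and 0 of 26 5′ UTR pairs exceeded 1% in all 6. Of the 8, 5 were in brain, where 5 of 16 synonymous and 0 of 9 5′ UTR sites did so, against 24.7% of the 631 edited sites of all classes. In 1 library alone 4 of 16 and 2 of 9 did, against 19.5% of the 631. The other 3 of the 8 were Cog3 in liver, kidney and heart. Nonsynonymous sites had 26.8% in 1 library and 38.4% in 6, and 3′ UTR sites 35.5% and 6.76%. Over all edited sites the shares were 37.0% and 8.18%, so that a single library was nearly as frequent there as among synonymous sites (38.7%). The 24 single values lay in 16 libraries, 14 of them in WT and 10 in E861A, with no library holding more than 3.

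**Figure D5:**
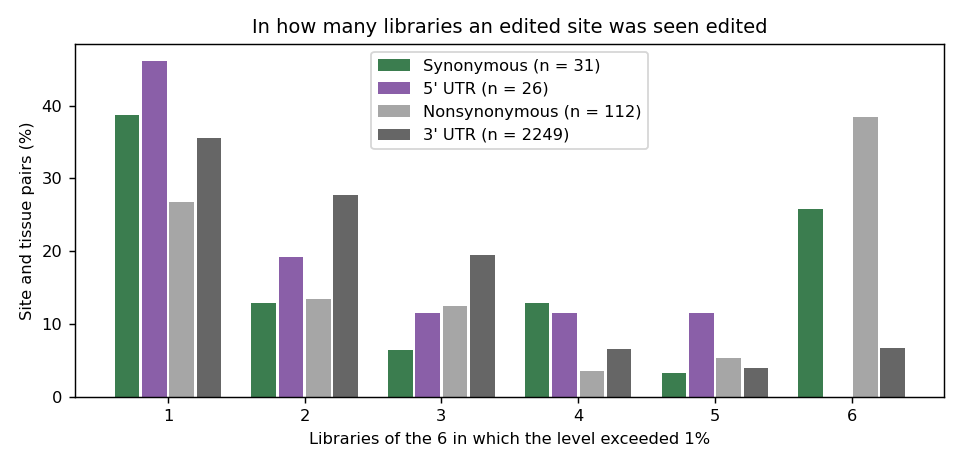
Percent of site and tissue pairs with all 6 libraries covered (y axis) by the number of libraries in which the level exceeded 1% (x axis), for synonymous, 5′ UTR, nonsynonymous and 3′ UTR sites. The 5′ UTR sites had no pair above 1% in all 6 libraries, and 8 of 31 synonymous pairs were.

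Zfp397 held more edited synonymous sites than any other gene. It encodes a C2H2 zinc finger protein, and 19 of its synonymous sites were covered. In brain 8 of them, within 367 bases (chr18:24118869 to 24119235, plus strand), were edited, at 2266 to 5791 reads. The first, a Glu codon, had 12.7%, 2.93% and 4.97% in WT brain and 3.92%, 5.93% and 2.30% in E861A brain, so that all 6 libraries exceeded 2% and the genotypes overlapped. The Lys site 12 bases on (chr18:24118881) had 2.12%, 3.66% and 1.76% in WT and 0.990%, 0.848% and 2.33% in E861A. The E861A mean was lower at 7 of the 8 sites and 0 were called. Of 49 nonsynonymous positions in the gene, 10 were edited in brain, and their highest WT mean was 5.34%. In heart 2 synonymous sites passed the limit, both through E861A replicate 3 (3.99% and 3.87%), and in small intestine 1 did, through E861A replicate 1 (6.46%).

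The WT libraries were also compared among the 8 tissues, to ask where these sites are edited when ADAR1 is intact. Of 26 sites tested, 5 differed (limma F test, adjusted p under 0.05), 4 of 12 synonymous and 1 of 14 5′ UTR sites, against 17.7% of all 840 positions tested. A site entered this test by exceeding 1% in at least 1 WT tissue, and these 5 did so in brain alone, so a higher level in brain followed from the entry rule and the levels are given as a description. The Zfp397 Glu site had a WT mean of 6.85% ± 5.13 in brain and 0.0890% to 0.810% in the other 7 tissues (adjusted p = 0.000515), and the Lys site 2.51% ± 1.01 against 0.0177% to 0.409% (0.00111). A Pro and a Glu site further on (chr18:24119211 and chr18:24119217) had 1.99% ± 1.08 and 2.23% ± 2.31 in brain and at most 0.576% elsewhere (0.0335 and 0.0340). The uc008wrp.2 site had 4.57% ± 1.30 in brain (n = 2) and 0.0912% to 0.525% elsewhere (0.000593). The count fell from 5 to 2 without WT replicate 1, 2 or 3 in all tissues, with 10 to 17 sites left to test, and was 4 of 26 with the replicate number as a block. Whether libraries of different tissues came from the same mice is not stated in the labels, and the fits across tissues treat them as independent. With the first site of uc007nmn.2, whose WT mean was 29.7% ± 26.2 in brain and 0.0907% to 5.22% elsewhere, the spread between brain libraries left an adjusted p of 0.288.

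Whether the genotype effect differed between brain and another tissue was tested over 12 libraries per pair of tissues. No site of either class passed in any of the 7 other tissues (limma, adjusted p under 0.05), and 7 tests of 4 sites had an unadjusted p under 0.05, out of 23 to 29 member sites tested per tissue. Of all positions tested, 2.99% passed for BM, 1.77% for spleen, 0.454% for thymus, 1.41% for liver, 1.76% for kidney, 0.492% for small intestine and 0.231% for heart. The smallest adjusted p was that of base 11 of the 2610044O15Rik pair in liver, 0.118, where the change differed from that in brain by −4.91 ± 1.27 (SE) on the log2 ratio scale. The difference for uc007nmn.2 base 26 in BM was 2.10 ± 0.88 (SE, adjusted p = 0.358). Without WT replicate 1 in both tissues it passed in BM, as 1 of 20 sites (2.93 ± 0.59, adjusted p = 0.0197), and in spleen, as 1 of 23 (2.76 ± 0.58, 0.0387), where 7.16% and 3.52% of all positions passed in the same fits. Base 26 had exceeded the edited limit in brain through WT alone. WT replicate 1 was the lowest WT brain library at this base (0.393%, against 9.12% and 4.23%). Leaving it out raised the WT brain mean that had admitted the site, so these 2 passes are given as a description.

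Outside brain, the synonymous sites other than Cog3 that passed the limit did so through 1 or 2 libraries. Son, which encodes a splicing cofactor, had 6.90% in WT kidney replicate 2 and at most 0.556% in the other 3 covered libraries, and 1.80% in 1 WT BM library. Ifi202b, an interferon-inducible gene, had 6.63% in E861A thymus replicate 3 and at most 0.110% in the other 5, and its 31 bases occur in 2 further exact copies. Zfp362 had 5.52% in WT spleen replicate 1 and at most 1.02% in the others. Tmem25 had 6.18% in WT brain replicate 1 and 2.91% in WT liver replicate 1, and at most 0.352% in every other library of these tissues. Cacna1g, which encodes a T-type calcium channel, had its 3 E861A heart libraries above the WT libraries (0.372%, 0.426% and 1.83% against 0.168%, 0.0842% and 0.314%), with an adjusted p of 0.566.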

How the data were processed

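The 48 mmPCR-seq libraries were from 8 tissues of 2 genotypes with 3 replicates each. The submitters' processing notes name STAR, SAMtools and the mm9 build, and the versions are not given in the sources used here. Per the file headers, the authors deposited, for each listed position and library, the read count (coverage), the edited read count and the editing level as a fraction, with no normalization. All 345233 deposited fractions of positions with reads equalled edited reads over coverage within rounding.

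The members and lists were chosen with earlier results of these data known. A level was used above 100 reads. Within each tissue, positions were tested together if each genotype had 2 or more of its 3 replicates so covered and either pooled level exceeded 0.01, with limma 3.58.1 (R 4.3.3; lmFit, eBayes with a trend) on log2((level + 0.01)/(1 − level + 0.01)). P-values were adjusted over all of them (Benjamini-Hochberg) at a threshold of 0.05. Log2 changes are differences on this scale, E861A minus WT, which the 0.01 makes smaller at low levels. The interaction with brain used 12 libraries, and the WT tissue test a moderated F test over 24. The procedure was tested on simulated data. Sites were named by rule: those past a threshold, the 10 per class with the highest WT mean level, those whose genotypes did not overlap and every edited site of transcripts known for recoding. Other sites were named after their values were seen.

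Replicates are described as independent biological replicates. Deviations of same-numbered WT and E861A libraries correlated at −0.119 to 0.238, and in no tissue were all 3 correlations above 0.1. Fits across tissues treat libraries of different tissues as independent, although the labels do not say whether they share mice. Floors for 0 edited reads are 3 reads over coverage, and intervals are 95% (Wilson for shares); both cover counting error only, since PCR reads are not independent molecules. Sequences were read from the reference genome of the mm9 build, with RefSeq tables not used. Alternatives covered the coverage and editing limits, offset, scale, variance trend, test, samples in the fit, replicate block and leaving out each library. Python 3.11.15 with pandas 2.3.3, numpy 2.4.6, scipy 1.17.1 and matplotlib 3.10.9 was used.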

Additional observations from a re-analysis of the deposited data

Results flagged for a closer look

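At 2 glutamate receptor sites, some single WT libraries outside brain had a high level in tissues where the genotypes were not compared, because under 2 libraries of a genotype had over 100 reads. At the Gria2 Gln site, WT spleen replicate 3 had 478 edited of 479 reads (99.8%, Wilson 98.83 to 99.96), WT liver replicate 3 had 740 of 2382 (31.1%, 29.2 to 33.0) and WT small intestine replicate 1 had 464 of 2072 (22.4%, 20.7 to 24.2), whereas E861A small intestine replicate 2 had 0.0% of 973 reads, WT BM replicate 3 0.319% of 941, WT heart replicate 3 0.414% of 483, E861A kidney replicate 2 0.381% of 787 and the 3 WT kidney libraries 0.0% each. At the Gria4 Leu site, WT BM replicate 3 had 14.9% (12.9 to 17.2) of 1067 reads edited, whereas WT liver replicate 3 had 0.0% of 824 reads, E861A kidney replicate 3 had 0.0% of 195 and WT spleen replicate 1, with fewer reads, had 0.0%. No E861A library of spleen, liver or BM had over 100 reads at the site in question.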

How the results depend on the processing

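No site was called in brain, BM, spleen, thymus, kidney, small intestine or heart without any one library. A fit over all 48 libraries called 10 sites in brain, 1 in BM, 2 in liver and 1 in heart, against 217 of 808, 253 of 538, 223 of 677 and 29 of 446 of all edited sites. With no edited limit 1 site was called in liver (Sh3bp2) and 1 in kidney (uc012edm.1), beside 0.559% and 1.21% of all positions, and the F test criterion called 1 in liver, beside 14.0% of all. The replicate block called 2 in BM and 4 in place of 5 in the WT tissue test, and changed no other count of sites called. Same-numbered libraries correlated at −0.119 to 0.238, and the labels do not say whether they share anything besides the number. Leaving out single libraries gave 0 to 1 called sites in liver, 0 to 2 for the interaction and 2 to 2 for the WT tissue test. The mean E861A minus WT difference of synonymous sites in brain was −0.438 percentage points and became 1.03 at an edited limit of 0.05. That of 5′ UTR sites in liver was 8.99 and became 31.4 at that limit, where 1 site was left, and 0.444 with no limit. Leaving out single libraries, the 5′ UTR difference ranged from −2.58 to 12.7 in brain and from −1.67 to 11.8 in thymus, but the sites averaged then changed too. With the sites kept the same, an alternative chosen after seeing the data, it ranged from 2.70 to 10.0 in brain (9 sites), −1.22 to −0.316 in thymus (2 sites) and −10.3 to 0.152 in heart (3 sites).

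Directions of uncalled sites turned when 1 library was left out. The log2 change of Cog3 ranged from −0.37 to 0.37 in brain, −0.30 to 0.21 in kidney, −0.02 to 0.58 in liver and −0.03 to 0.65 in thymus. In brain it ranged from −0.19 to 0.49 for Gria3, −1.16 to 0.06 for Grik2, −0.11 to 0.68 and −0.74 to 0.36 for the Zfp397 Pro and second Glu sites, and −0.01 to 3.30 and −1.17 to 0.43 for bases 5 and 23 of uc007nmn.2. For base 18 of uc008nqs.1 in liver it ranged from −1.75 to 0.68. Base 23 also turned with an offset of 0.05 (0.01) and on the untransformed level, the scale of the F test (a difference of 0.00438 as a fraction). The cause was not tested. Depth left the 2610044O15Rik pair without WT brain replicate 1, which had 13 reads.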

Other observations

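High levels also occurred at sites that too few libraries covered for a comparison. A Gly site of Acan, which encodes the cartilage proteoglycan aggrecan, had 310 edited of 763 reads (40.6%) in E861A liver replicate 2 and 0.754% in replicate 3, with no other liver library over 100 reads. A Thr site of Atp11b, which encodes a phospholipid flippase, had 82 of 417 (19.7%) in E861A BM replicate 3 and 0.313% in WT BM replicate 3. In spleen, base 18 of the 2610044O15Rik pair had 25.5% in WT replicate 1 and 14.1%, 31.4% and 3.79% in E861A replicates 1, 2 and 3, and base 11 had 27.0%, 15.5%, 31.8% and 4.0% in the same libraries. In heart base 18 had 1.15% in WT replicate 1 and 15.8% of 101 reads in E861A replicate 2.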
